A study of Mus musculus with 4 samples.

Results

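The genes described here encode the secreted and membrane-bound parts of Wnt signalling, with a few of its intracellular regulators, and were read on 4 mouse expression arrays. They were chosen by the gene name given to each probe: Wnt, Fzd, Sfrp (1 to 5) and Dkk (1 to 4) genes, together with Axin2, Lef1, Tcf7l1, Tcf7l2, Nkd1, Nkd2, Lrp5, Lrp6, Wif1 and Frzb. The rule found 46 of 27669 genes or transcripts on the array, through 64 of 41174 probes. By role these were 19 Wnt ligands, 10 Frizzled receptors, 2 co-receptors, 10 secreted antagonists and 5 intracellular genes. Tcf7l1 had no probe of that name, and 2 probes named Tcf3 that carry its RefSeq transcript are given separately. The study sought transcription factors of neural progenitor cells (NPCs), and compared 3 NPC lines with a pooled reference called Mixture. The lines NS21, NS195R and NSEB5-2C come from separate embryonic stem cell lines. Strain 129/Ola is the label of NS21 and of NSEB5-2C, and 129/Sv that of NS195R. Mixture held equal masses of RNA of day 11 embryo and of lung, liver, spleen, thymus, kidney and heart, and its strain is Swiss Webster. A label of Mixture instead names an NPC line treated with doxycycline. Each line and Mixture was hybridised on 1 array from 0.25 ug of RNA. Strain and cell type therefore cannot be told apart in a ratio to Mixture, and a p-value measures the spread between the 3 lines. Strain and line cannot be told apart where NS195R, the only 129/Sv line, differs from the other lines. Because these are bulk samples, fewer cells of a type and less RNA per cell cannot be told apart either.

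Wnt proteins are secreted lipid-modified ligands. A ligand bound to a Frizzled receptor and to Lrp5 or Lrp6 stabilises beta-catenin, which enters the nucleus and acts with TCF/LEF factors on target genes, while other Wnt signals use Frizzleds without beta-catenin to orient and move cells. Secreted Sfrp proteins, Frzb and Wif1 bind the ligands, and most Dkk proteins act on the co-receptors. In the developing neural tube Wnt signals from the dorsal midline are known to control progenitor growth and regional identity.

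Of 43379 non-control spots, between 23983 and 26840 were well above background on each array, by the scanner software's own flag, and 0 were saturated. Among repeated probes well above background, copies of the same probe on an array differed by a median SD of at most 0.0729 on the log2 scale. This measures the noise of spots within an array, and not the spread between samples or the noise of dim probes. Markers of the pooled tissues showed 26 of 27 well above background in Mixture, against 3 in NSEB5-2C, 8 in NS195R and 6 in NS21, and limma called 21 of the 26 tested lower in the lines. Among 10 neural progenitor markers, NS195R had 10 well above background, NSEB5-2C 9 and NS21 8. Their summed signal was 10555 in Mixture, 33128 in NSEB5-2C, 72227 in NS195R and 33419 in NS21. Sox2, a single gene of this list, gave a processed signal of 21.7 in Mixture, 423 in NSEB5-2C, 1620 in NS195R and 6.9 in NS21 (not well above background). Of 6 pluripotency markers, NS21 had 3 well above background, NSEB5-2C 2 and NS195R 1. The summed signal of these was 211 in Mixture, 79.4 in NSEB5-2C, 176 in NS195R and 680 in NS21. Esrrb, of this list, was at 472 in NS21 and not well above background in the other lines. All 6 mesenchyme markers were well above background on every array, with a summed signal of 3518 in NS21, 8029 in NS195R, 14105 in NSEB5-2C and 51282 in Mixture.

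Most of the pathway's surface genes were detected somewhere. Of the 46, 40 were well above background on at least 1 array: 37 in Mixture, 28 in NSEB5-2C, 32 in NS195R and 33 in NS21. As shares of the 40 these were 92.5% in Mixture, 70% in NSEB5-2C, 80% in NS195R and 82.5% in NS21, against 86.6%, 75.4%, 80.5% and 77.6% of all genes that passed the same filter. Ligands accounted for much of the drop from Mixture to the lines: 13 of 19 were detected in Mixture, 10 each in NS21 and NS195R, and 7 in NSEB5-2C. Frizzleds did not thin out in this way, with 9 of 10 detected in Mixture, 10 in NS21 and 9 in each of the other lines. The 6 genes that were not well above background on any array were the ligand genes Wnt1, Wnt8a, Wnt8b, Wnt10b and Wnt16 and the antagonist gene Dkk4. Their signals lay between 1.28 and 7.99, which gives only a bound on their levels. The remaining 40 genes entered the tests, a filter that a gene could pass through a single array.

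**Figure D1:**
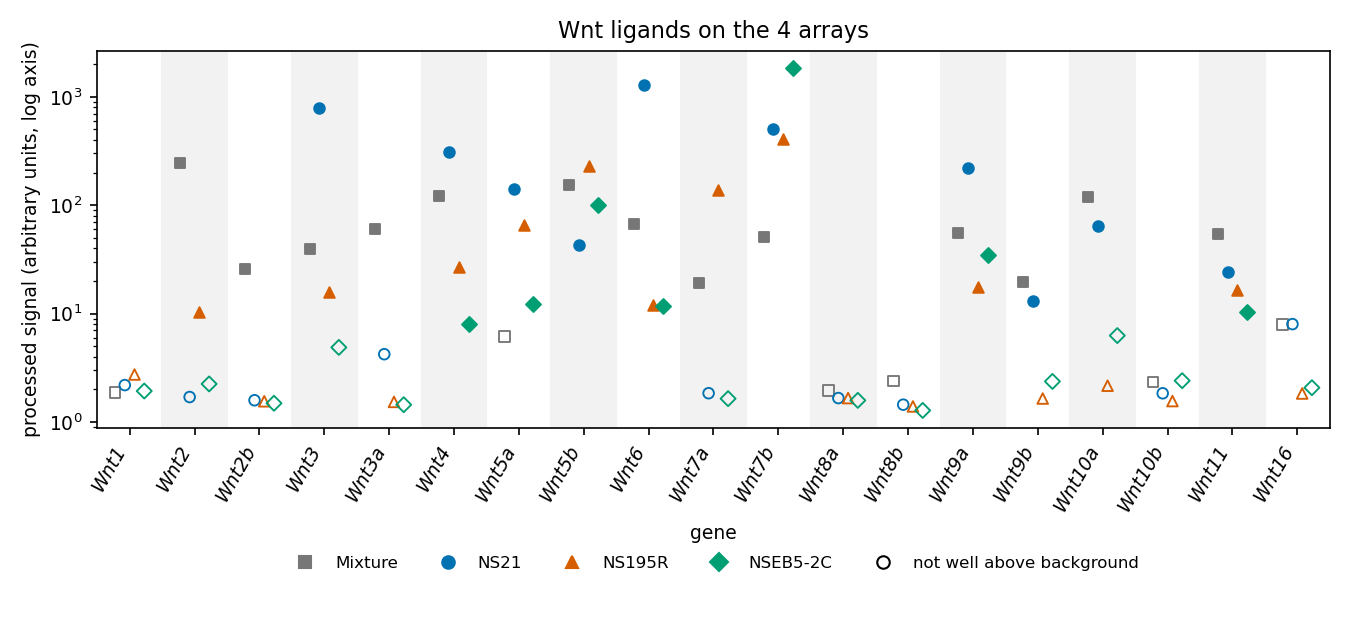
Processed signal (arbitrary units, log axis) of the 19 Wnt ligand genes on the array of Mixture and of each NPC line, with open symbols for probes not well above background. Wnt3 and Wnt6 stand out in NS21, at 793 and 1275, Wnt7a in NS195R, at 138, and Wnt7b in NSEB5-2C, at 1847.

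Among the ligands, Wnt7b and Wnt5a lay above Mixture in all 3 lines. Wnt7b encodes a ligand active in forebrain progenitors and brain vessel growth. Its processed signal was 51.2 in Mixture, 1847 in NSEB5-2C, 405 in NS195R and 503 in NS21. All 3 lines lay above Mixture, and NSEB5-2C was 3.78-fold above the next line. After each array was scaled to its percentile 75, the mean log2 ratio of the lines to Mixture was 3.92 (SE 1.15, n = 3 lines against 1 array), which did not pass limma (adjusted p = 0.138, with Benjamini-Hochberg adjustment over all genes). The median log2 ratio of genes measured on each of the 4 arrays was 0.71, so relative to this shift Wnt7b lay at 3.21. Wnt5a, a ligand best known for signalling without beta-catenin, gave 6.15 in Mixture, which was not well above background, 12.2 in NSEB5-2C, 66.1 in NS195R and 141 in NS21. The lines were at least 6.42-fold higher than Mixture as a mean, without passing limma (adjusted p = 0.298). Such bounds set the measured side against the lowest signal that counted as well above background on the dim array, or the probe's own signal where that was higher.

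Several ligands present in the pooled tissues were faint or not well above background in every line. Wnt2b, a ligand of the cortical hem and of several organs, gave 25.7 in Mixture and between 1.49 and 1.58 in the lines, where it was not well above background. It was at least 3.52-fold lower in the lines, and below Mixture in 3 of 3. With dim signals left as read, its log2 ratio was -3.96 (SE 0.34, limma adjusted p = 0.0167). This SE and p rest on the spread of line signals that were not well above background. Wnt2b was the single gene of the 46 that passed limma. The call ended without any 1 of the lines, where the limma adjusted p was between 0.0698 and 0.109, with median scaling (0.0543) and with normexp background correction (0.156, log2 ratio -0.49). Wnt2, known for its part in lung and heart development, gave 243 in Mixture, 2.24 in NSEB5-2C, 10.2 in NS195R and 1.7 in NS21, with NS195R the only line in which it was well above background. Its log2 ratio was -6.06 (SE 1.25, limma adjusted p = 0.086). Wnt3a, a ligand of the dorsal neural tube and of early mesoderm, gave 59.8 in Mixture and 4.22, 1.53 and 1.44 in NS21, NS195R and NSEB5-2C, where it was not well above background. It was at least 8.18-fold below Mixture (limma adjusted p = 0.0708). Wnt11, which acts mainly without beta-catenin, was measured on all arrays at 53.6 in Mixture, 10.4 in NSEB5-2C, 16.4 in NS195R and 24.0 in NS21 (log2 ratio -1.64, SE 0.62, limma adjusted p = 0.191). Wnt2 and Wnt3a passed limma in 2 of the alternative settings, with normexp background correction and with dim values raised to the array's lowest signal that counted as detected.

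Other ligands separated the lines from each other rather than from Mixture. NS21 carried the longest set. Wnt6, a ligand of surface ectoderm, gave 67.6 in Mixture, 11.8 in NSEB5-2C, 12.01 in NS195R and 1275 in NS21, so NS21 lay 105-fold above the next line and the other lines lay below Mixture. A second Wnt6 probe put NS21 at least 234-fold above the next line. Wnt3, a ligand needed for the primitive streak, gave 39.5 in Mixture, 4.87 in NSEB5-2C (not well above background), 15.7 in NS195R and 793 in NS21. NS21 was 53.4-fold above NS195R by this probe and at least 55.5-fold above the next line by a second probe. Wnt4, a ligand of kidney and gonad development, gave 122 in Mixture, 8.06 in NSEB5-2C, 27.0 in NS195R and 312 in NS21, a 12.3-fold lead of NS21 over the next line. Wnt9a gave 55.9 in Mixture, 34.5 in NSEB5-2C, 17.7 in NS195R and 219 in NS21, a 6.17-fold lead, and its other probe was dim on every array. Wnt10a, a ligand of tooth and skin appendages, gave 119 in Mixture, 6.26 in NSEB5-2C, 2.16 in NS195R and 64.4 in NS21, the other lines not well above background. It lay at least 9.85-fold higher in NS21 than in the next line and below Mixture in all 3. Wnt9b was also measured in Mixture and NS21 alone, at 19.7 and 13.1.

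NS195R was marked by Wnt7a, the closest relative of Wnt7b, with 19.2 in Mixture, 1.64 in NSEB5-2C, 138 in NS195R and 1.84 in NS21. It was not well above background in the other lines, and NS195R lay at least 18.1-fold above them. Wnt7a and Wnt7b thus peaked in different lines. Wnt5b, a relative of Wnt5a, was measured on every array, at 153 in Mixture, 99.5 in NSEB5-2C, 229.9 in NS195R and 42.9 in NS21. Here the order of the lines was the opposite of that of Wnt5a between NS21 and NS195R, and a second Wnt5b probe gave the same order of lines, at 27.6, 47.2 and 10.1 in that order. In NSEB5-2C a single ligand exceeded both other lines by at least 2-fold, Wnt7b, while Wnt3, Wnt4 and Wnt5a lay at least 2-fold below both.

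**Figure D2:**
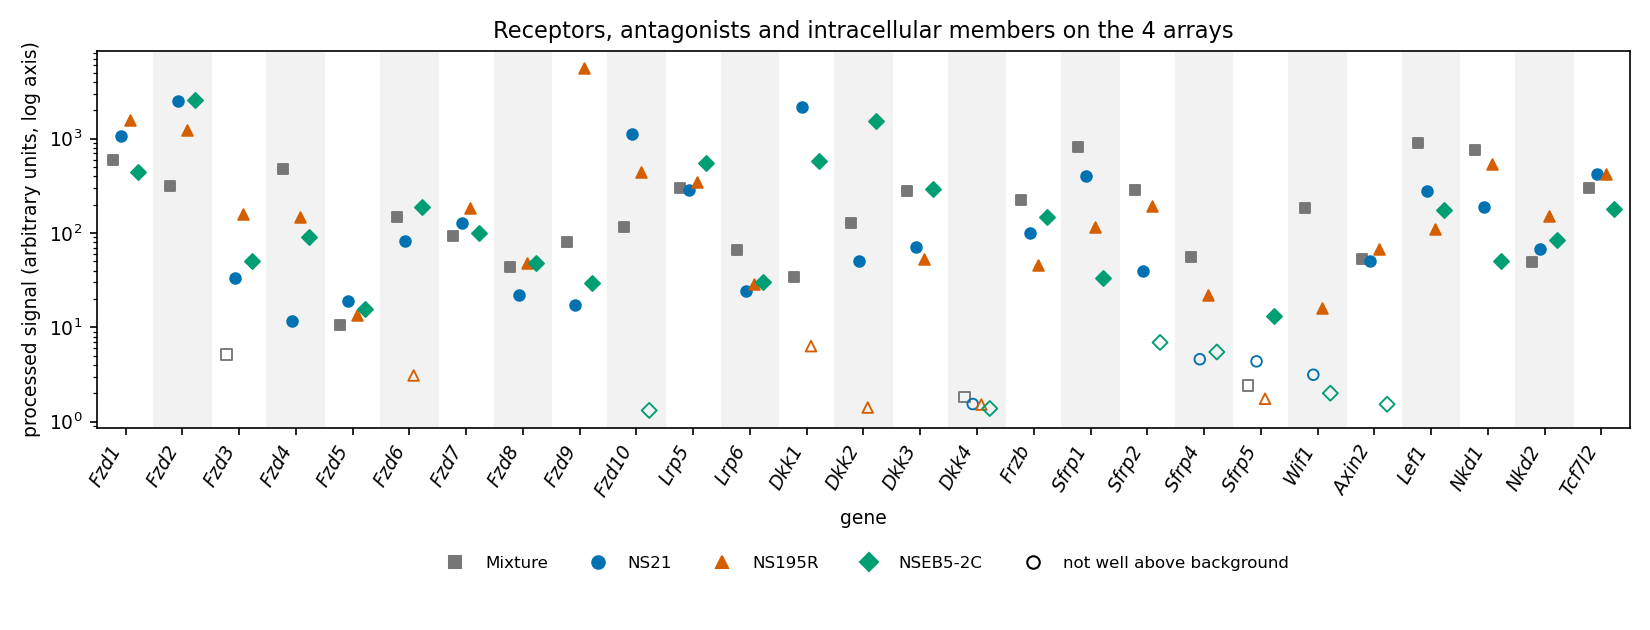
Processed signal (arbitrary units, log axis) of the Frizzled receptors, co-receptors, antagonists and intracellular genes on the 4 arrays, with open symbols where the probe was not well above background. Fzd9 is at 5611 in NS195R and at most 80.8 elsewhere, and Dkk1 and Dkk2 each have a line at or above 1553 and another that is not well above background.

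Receptors showed a shared part and a line-specific part. Fzd2, a widely expressed Frizzled, gave 318 in Mixture, 2535 in NSEB5-2C, 1226 in NS195R and 2518 in NS21. Every line lay above Mixture (log2 ratio 2.75, SE 0.68, limma adjusted p = 0.11), or 2.04 relative to the median shift. Fzd3, needed for axon tracts in the brain, gave 5.15 in Mixture, not well above background, 50.7 in NSEB5-2C, 160.0 in NS195R and 33.2 in NS21. The lines were at least 8.57-fold above Mixture as a mean (limma adjusted p = 0.13), and a second probe gave 1.88, 16.5, 77.1 and 13.5 in the same order of arrays. A further probe, whose name in the files is a listed synonym of Fzd3, was well above background in Mixture at 19.0 and gave 59.9, 422 and 90.8 in the lines in that order. Its measured log2 ratio was 2.90 (SE 1.31, limma adjusted p = 0.246). Fzd4, a receptor of retinal vessels, lay the other way, with 482 in Mixture, 90.4 in NSEB5-2C, 148 in NS195R and 11.6 in NS21 (log2 ratio -3.06, SE 1.76, limma adjusted p = 0.33). NS21 was 8.01-fold below NSEB5-2C for this gene. By the brightest probe of each, Fzd1, Fzd5, Fzd7 and Fzd8 were measured on all arrays with log2 ratios between -0.14 and 0.72. None of these passed limma. The brightest Fzd7 probe lay 1.48-fold above Mixture in NS21, 2.02-fold in NS195R and 1.19-fold in NSEB5-2C. A second Fzd7 probe, also measured on all arrays, lay 5.15-fold, 4.63-fold and 4.09-fold above Mixture in that order. Only by the second probe was Fzd7 at least 1.5-fold above Mixture in 3 of 3 lines.

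Fzd9, a receptor known from hippocampal progenitors, had the steepest peak of any receptor, with 80.8 in Mixture, 29.6 in NSEB5-2C, 5611 in NS195R and 17.2 in NS21. NS195R lay 174-fold above the next line and the other lines lay below Mixture. Its mean ratio to Mixture, 0.92 on the log2 scale (SE 4.09), averages lines on both sides of Mixture and was -1.70 without NS195R. Fzd10, a receptor of the dorsal neural tube, gave 116 in Mixture, 1.32 in NSEB5-2C (not well above background), 446 in NS195R and 1125 in NS21. NS195R was at least 64.5-fold above NSEB5-2C by this probe and at least 26.3-fold by a second probe. Fzd6, a receptor of planar polarity, was dim in a different line, with 147 in Mixture, 188 in NSEB5-2C, 3.09 in NS195R (not well above background) and 83.2 in NS21. NS21 lay at least 12.7-fold above NS195R.

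Of the co-receptors, Lrp6 varied little between the lines by the probe of that name. For Lrp6 the signals were 65.7 in Mixture, 30.4 in NSEB5-2C, 29.1 in NS195R and 24.5 in NS21. All 3 lines lay below Mixture and within 1.28-fold of each other, but the log2 ratio of -1.13 (SE 0.37) did not pass limma (adjusted p = 0.158). A further probe, whose name in the files is a listed synonym of Lrp6, gave 22.6, 9.57, 29.3 and 13.5 on the same arrays in that order. By it NS195R lay above Mixture, and the lines spread over 2.81-fold. Lrp5 gave 298 in Mixture and between 282 and 547 in the lines (log2 ratio 0.44, SE 0.58, limma adjusted p = 0.654). Its log2 range between lines was 0.997, near the median of 0.97 over all genes well above background in some line.

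Of the antagonists, Dkk1 and Dkk2 separated the lines most. Dkk1, which blocks the co-receptors, gave 33.8 in Mixture, 573 in NSEB5-2C, 6.32 in NS195R (not well above background) and 2141 in NS21. NS21 and NSEB5-2C lay above Mixture, and NSEB5-2C was at least 90.1-fold above NS195R. A second Dkk1 probe kept the order of lines, with 78.9 in NSEB5-2C, 1.46 in NS195R and 492 in NS21. Dkk2, a relative that can block or weakly activate signalling, gave 126 in Mixture, 1553 in NSEB5-2C, 1.41 in NS195R (not well above background) and 50.6 in NS21, a 31.6-fold lead of NSEB5-2C over NS21. Dkk3, a divergent family member, gave 279 in Mixture, 294 in NSEB5-2C, 52.5 in NS195R and 70.3 in NS21, a 4.3-fold lead of NSEB5-2C over the next line. NSEB5-2C also had the highest signal among the lines for the mesenchyme markers as a sum, and their part in the Dkk values was not tested.

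The antagonists that bind Wnt ligands were mostly below Mixture. Wif1, the Wnt inhibitory factor, gave 185 in Mixture, 2.01 in NSEB5-2C, 16.0 in NS195R and 3.15 in NS21, with NS195R alone well above background among the lines (log2 ratio -5.21, SE 1.40, limma adjusted p = 0.122). With normexp correction and with dim values raised, Wif1 passed limma (adjusted p = 0.0261 and 0.0425). In the latter setting the values of NS21 and NSEB5-2C were raised ones, so that pass reflects them at least in part. Sfrp1, a decoy for Wnt ligands expressed in cortical progenitors, gave 819 in Mixture, 33.3 in NSEB5-2C, 115 in NS195R and 403 in NS21, and every line lay below Mixture (log2 ratio -2.72, SE 1.63, limma adjusted p = 0.346). Sfrp2, of the same family, gave 283 in Mixture, 6.92 in NSEB5-2C (not well above background), 192 in NS195R and 39.5 in NS21. NS195R was 4.59-fold above NS21 for Sfrp2, whereas for Sfrp1 NS21 was 3.71-fold above NS195R. Sfrp4 gave 56.2 in Mixture, 5.48 in NSEB5-2C, 22.2 in NS195R and 4.59 in NS21, well above background in Mixture and NS195R. Frzb lay between 45.7 and 147 in the lines and at 222 in Mixture (limma adjusted p = 0.425), and Sfrp5 was well above background only in NSEB5-2C, at 13.2. The pooled-tissue markers listed above were also high in Mixture, and their part in these ratios was not tested.

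Among the intracellular genes, by the brightest probe of each, Axin2 and Nkd1 separated the lines most, both lowest in NSEB5-2C. Lef1, a DNA-binding partner of beta-catenin, gave 904 in Mixture, 176 in NSEB5-2C, 110.2 in NS195R and 275 in NS21. All lines lay below Mixture (log2 ratio -2.27, SE 0.71, limma adjusted p = 0.15), and a second probe gave 613, 116, 78.3 and 193 in that order. Axin2, a negative regulator and a widely used readout of beta-catenin signalling, gave 52.8 in Mixture, 1.53 in NSEB5-2C (not well above background), 67.6 in NS195R and 50.4 in NS21. NS21 lay at least 7.71-fold and NS195R at least 9.78-fold above NSEB5-2C. Nkd1, a feedback inhibitor that is also induced by the pathway, gave 750.3 in Mixture, 51.1 in NSEB5-2C, 533 in NS195R and 189 in NS21, a 9.6-fold range. Its relative Nkd2, by its brightest probe, ran from 67.6 to 152 in the lines against 48.9 in Mixture (limma adjusted p = 0.322). A second Nkd2 probe ranged wider, at least 12.7-fold, with 6.40 in NSEB5-2C, 88.7 in NS195R and 24.9 in NS21. That probe was not well above background in NSEB5-2C or in Mixture. Tcf7l2, a TCF factor, gave 298 in Mixture, 181 in NSEB5-2C, 420.3 in NS195R and 425 in NS21, which put the log2 ratio at 0.20 (SE 0.68, limma adjusted p = 0.863). The brighter Tcf3 probe that carries the Tcf7l1 transcript gave 490.0 in Mixture, 1923 in NSEB5-2C, 1442 in NS195R and 2211 in NS21. All lines lay above Mixture for this TCF gene, which mainly represses targets (log2 ratio 2.00, SE 0.47, limma adjusted p = 0.102).

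**Figure D3:**
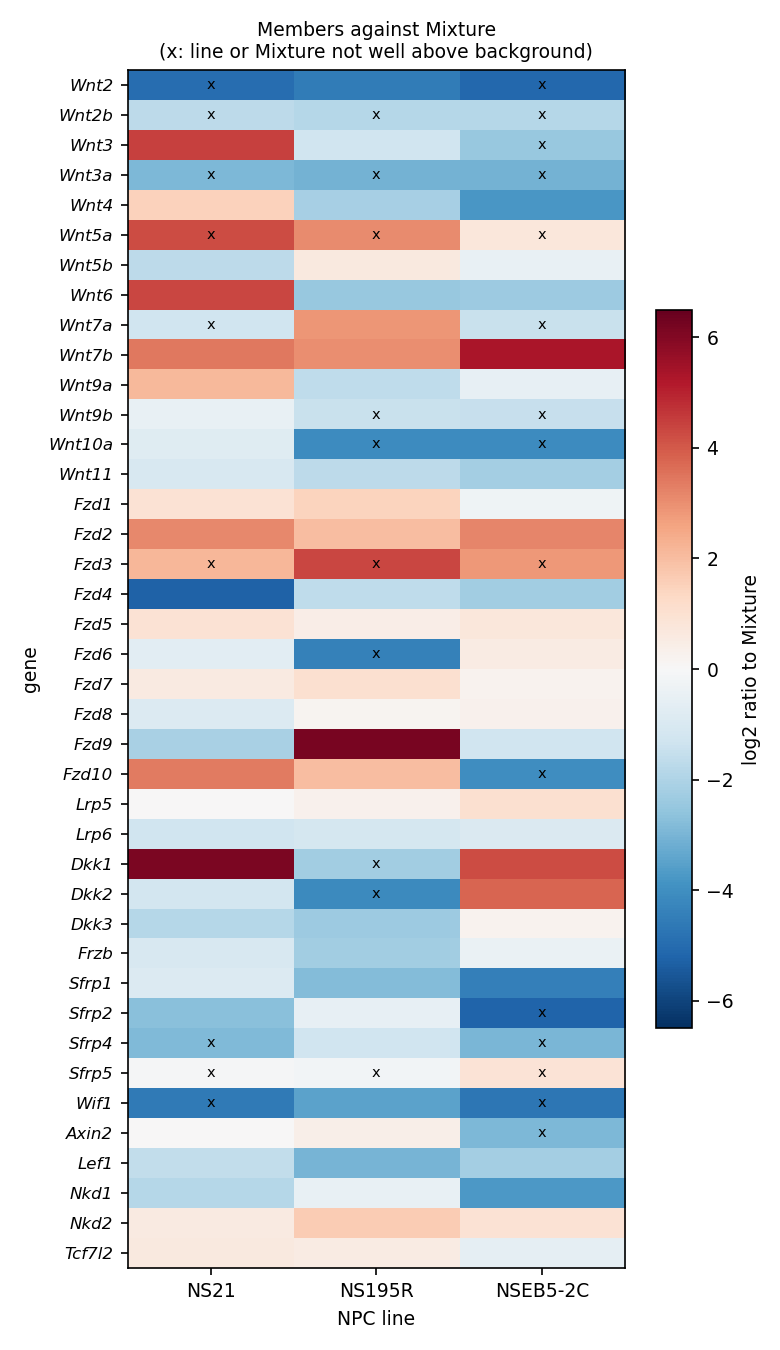
Log2 ratio of each NPC line to Mixture for the 40 genes tested, ordered by role, after scaling each array to its percentile 75 and raising dim values to the array's lowest detected signal. A cross marks cells in which the line or Mixture was not well above background. Wnt7b, Fzd2 and Fzd3 are red in all 3 lines, Wnt2, Wnt3a and Wif1 are blue in all 3, and Fzd9 and Dkk1 change colour between lines.

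Counted over the set, more of these genes lay below Mixture than above it in 3 of 3 lines, except with median scaling. By limma 0 of 40 were higher in the lines, where the background share over all 19823 genes tested was 0.943%, and 1 was lower, Wnt2b, where the background was 8.9%. At an unadjusted p under 0.05, 3 were higher (Wnt7b, Fzd2 and Fzd3, background 15.6%) and 6 were lower (Wnt2, Wnt2b, Wnt3a, Lrp6, Wif1 and Lef1, background 15.4%). By size alone, and by the brightest probe of each gene, 4 of 40 lay at least 1.5-fold above Mixture in 3 of 3 lines (Wnt5a, Wnt7b, Fzd2 and Fzd3), against 26.4% of all genes tested. At least 1.5-fold below Mixture in 3 of 3 lines lay 11 (Wnt2, Wnt2b, Wnt3a, Wnt10a, Wnt11, Fzd4, Lrp6, Sfrp1, Sfrp4, Wif1 and Lef1), against 21.8%. With median scaling these counts were 9 above and 7 below, with quantile normalization 7 and 9, and with normexp 2 and 6. Line by line, 13 lay at least 1.5-fold above Mixture and 21 below in NS21 (background 42.9% and 30%), 11 and 21 in NS195R (42.8% and 29.8%), and 10 and 21 in NSEB5-2C (39.5% and 32.4%). The median log2 ratio was -1.18 over the 40 genes and 0.44 over all genes tested. By role it was -1.37 for ligands, 0.66 for Frizzleds, -0.35 for the co-receptors, -1.34 for antagonists and -1.50 for the intracellular genes. Relative to the median shift of 0.71 the Frizzleds lay at -0.05. These medians include probes that were dim in the lines, and with dim values raised the median of the 40 was -0.53. Among the 22 genes well above background on all 4 arrays it was -0.15, against 0.71 for all such genes.

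Many of these genes spread widely between the lines. The highest line was at least 10-fold above the lowest for 14 of the 40 genes, against 9.22% of all genes tested. Of the 38 well above background in some line these were 36.8%, against 10.3% of all such genes. They comprised 6 ligands, 4 receptors and 4 antagonists. The count uses the bounds where a line was dim, so that Wnt10a, at least 9.85-fold, and Axin2, at least 9.78-fold, fall just short of it, and with dim values left as measured it was 16. The median log2 range between lines, bounds included, was 2.33 over the 38 genes and 0.97 over the 17788 genes of the whole table that were well above background in some line. The range between lines has no replicate check, because each line has 1 array. The count fell with the number of lines compared, to 7 without NS21, 7 without NS195R and 9 without NSEB5-2C, as did that of all genes, from 1827 to between 723 and 1137. Under normexp, which compresses low signals, it was 6, and 535 for all genes.

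**Figure D4:**
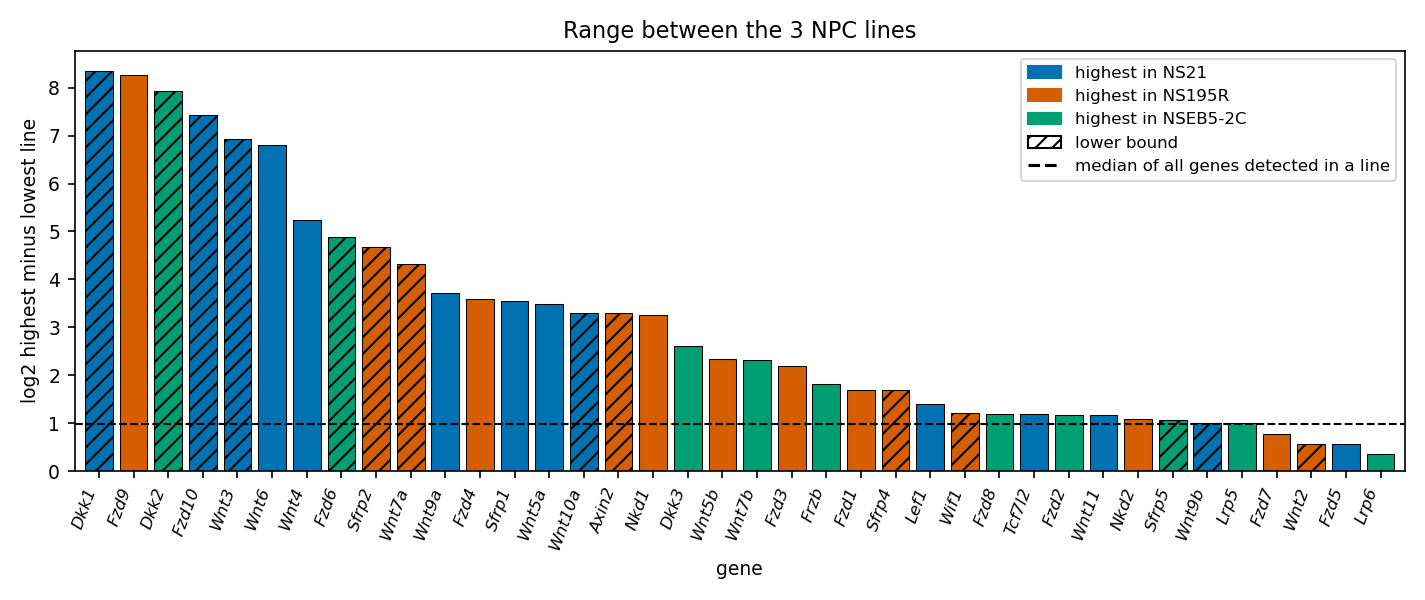
Log2 range over the 3 NPC lines (highest minus lowest) of each gene well above background in at least 1 line, coloured by the line with the highest signal, with hatched bars for lower bounds. The dashed line is the median of the 17788 genes well above background in some line, 0.97, and the bars run from 8.35 for Dkk1 down to Lrp6, whose lines lay within 1.28-fold.

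Genes at least 2-fold above or below both other lines are listed by line. By this definition the high sets of different lines cannot share a gene, nor can the low sets. In NS21, 10 genes exceeded both other lines by at least 2-fold (background 7.3%): the ligand genes Wnt3, Wnt4, Wnt5a, Wnt6, Wnt9a, Wnt9b and Wnt10a, with Fzd10, Dkk1 and Sfrp1. Below both others lay 3 (background 4.06%): Fzd4, Fzd8 and Wnt5b. In NS195R 8 lay above (background 10.3%): Wnt5b, Wnt7a, Fzd3, Fzd9, Sfrp2, Sfrp4, Wif1 and Nkd1. Below lay 6 (background 5.88%): Wnt9a, Fzd2, Fzd6, Dkk1, Dkk2 and Frzb. In NSEB5-2C 4 lay above (background 5.6%): Wnt7b, Fzd6, Dkk2 and Dkk3. Below lay 10 (background 6.3%): Wnt3, Wnt4, Wnt5a, Fzd1, Fzd10, Sfrp1, Sfrp2, Axin2, Nkd1 and Tcf7l2. Ligands made up most of the high NS21 set, and the low set of NSEB5-2C held ligands, receptors, antagonists and intracellular genes. Tested with limma, each line against the other lines gave 0 calls among all genes (0%), and 7, 7 and 4 of the 40 genes had an unadjusted p under 0.05 for NS21, NS195R and NSEB5-2C, where the background was 5.72%, 10.5% and 5.82%. Esrrb and Sox2, single members of the marker lists, also differed between the lines, as given above with the sums of their lists. Their part in these sets was not tested.

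The start regions of the genes with the widest range are shown because these genes were bright in a line and faint or dim in another. They come from RefSeq (GRCm38.p6), cover the 250 bases before the annotated start and read 5′ to 3′ on the gene's strand, with capitals for CG dinucleotides, for TATAAA on that strand and for the TCF/LEF letters CTTTGAA or CTTTGAT, searched on both strands.
Dkk1, chr19:30549497-30549746 (minus strand): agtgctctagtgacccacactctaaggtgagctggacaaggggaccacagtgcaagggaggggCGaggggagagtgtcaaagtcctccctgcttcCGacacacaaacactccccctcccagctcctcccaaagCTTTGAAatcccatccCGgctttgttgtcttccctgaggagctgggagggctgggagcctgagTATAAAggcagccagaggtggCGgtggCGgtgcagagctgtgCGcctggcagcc
Dkk2, chr3:132085042-132085291 (plus strand): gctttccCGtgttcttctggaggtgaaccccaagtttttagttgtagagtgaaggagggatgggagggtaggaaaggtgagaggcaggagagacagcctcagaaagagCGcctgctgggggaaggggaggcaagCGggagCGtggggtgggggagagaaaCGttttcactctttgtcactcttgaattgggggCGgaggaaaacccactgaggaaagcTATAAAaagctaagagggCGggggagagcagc
Fzd10, chr5:128600856-128601105 (plus strand): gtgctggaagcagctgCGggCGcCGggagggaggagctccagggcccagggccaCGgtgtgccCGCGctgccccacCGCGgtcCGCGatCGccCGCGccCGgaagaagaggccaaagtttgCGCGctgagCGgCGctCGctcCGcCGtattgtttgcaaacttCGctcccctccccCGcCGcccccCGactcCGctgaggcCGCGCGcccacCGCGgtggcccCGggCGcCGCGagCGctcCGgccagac
Fzd9, chr5:135251048-135251297 (minus strand): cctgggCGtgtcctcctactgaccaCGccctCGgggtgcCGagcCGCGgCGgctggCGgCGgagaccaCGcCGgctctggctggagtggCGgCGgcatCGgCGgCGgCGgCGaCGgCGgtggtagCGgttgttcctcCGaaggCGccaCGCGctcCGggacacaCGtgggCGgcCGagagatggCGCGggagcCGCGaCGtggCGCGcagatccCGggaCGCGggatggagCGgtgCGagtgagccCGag

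Among these 4 regions the Dkk genes held fewer CG dinucleotides than the Fzd genes. The Dkk1 region holds 6 CG dinucleotides, a TATAAA and a TCF/LEF match that starts at position -117 relative to the annotated start. Dkk2 holds 7 CG dinucleotides and a TATAAA, and Fzd10 and Fzd9 hold 37 and 42 CG dinucleotides and neither motif. A region was found for 32 of the 46 genes. Their median CG count was 22, against 6 over 27025 genes. TATAAA stood in 4 of the 32 (Dkk1, Dkk2, Fzd1 and Wnt11), or 12.5%, against 8.13% of all regions. The TCF/LEF letters stood in 2 (Dkk1 and Wnt11), or 6.25%, against 7.69%. A match describes letters only, and so does the lack of one.

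**Figure D5:**
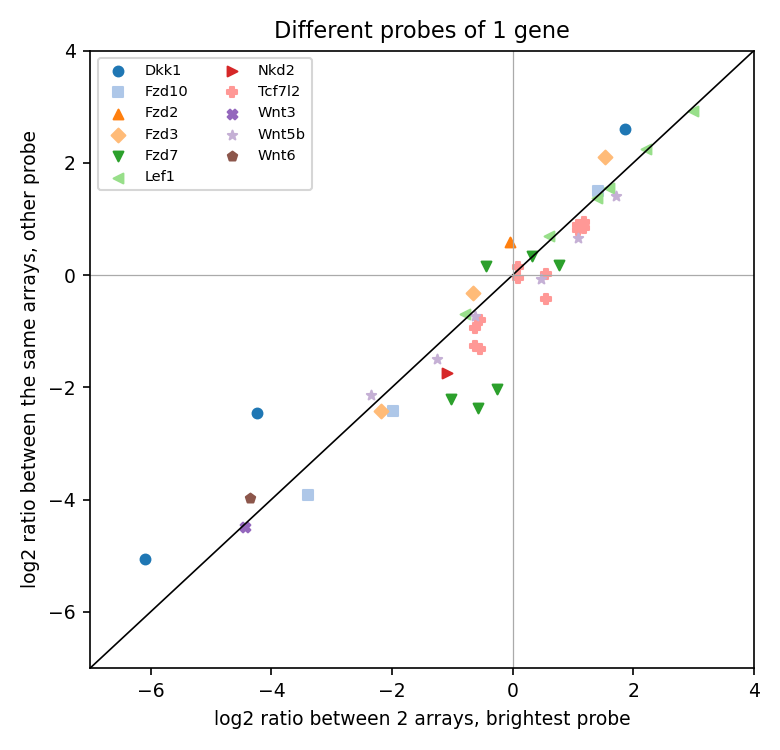
Log2 ratio between pairs of arrays by the brightest probe of a gene (x axis) and by another probe of the same gene (y axis), for 11 genes with more than 1 measured probe. Most points lie near the diagonal, with a median distance of 0.32, and Fzd7 lies farthest, at 1.80.

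Where probes of the same gene were well above background, they usually shared the sign of the difference between arrays. Of 15 genes with more than 1 probe, 11 could be compared, over 43 pairs of arrays, and the sign was shared in 38. Tcf7l2 supplied the most pairs, and Wnt3, Wnt6, Fzd2 and Nkd2 the fewest. Wnt9a, Fzd5, Fzd8 and Sfrp1 could not be compared because their second probe was too dim. For Sfrp1 it was dim in every line, where the brightest probe gave 33.3 in NSEB5-2C, 115 in NS195R and 403 in NS21. The median absolute difference between probes was 0.32 on the log2 scale. The widest, 1.80, was for Fzd7 between Mixture and NS21: its brighter probe gave 93.5 and 128 and the other probe 10.02 and 47.7. The line differences of Wnt3, Wnt6, Fzd10 and Dkk1 described above were seen with separate probes, while Wnt7a, Fzd9 and Dkk2 rest on 1 probe each. The Fzd9 probe was matched to its gene by symbol and not by a RefSeq transcript.

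Some Wnt genes lie side by side in the genome. In the RefSeq gene order the neighbours are Wnt6 and Wnt10a on chromosome 1, Wnt3a and Wnt9a as well as Wnt9b and Wnt3 on chromosome 11, and Wnt10b and Wnt1 on chromosome 15. Wnt6 and Wnt10a were both highest in NS21 among the lines, as were Wnt3 and Wnt9b. NS21 was the highest line for 10 of the 14 ligands tested, dim values included, so sharing that line was common among ligands. Wnt9b gave 13.1 in NS21, below the 19.7 of Mixture, and its lead is a bound of 2.0-fold over dim lines. Wnt9a was highest in NS21 while its neighbour Wnt3a was not well above background in any line. Wnt10b and Wnt1 were dim on all arrays. These pairs are a description of 3 lines, with no test.

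Other genes of the pathway, taken from a separate list of 65 on the array, had a median log2 ratio to Mixture of 0.50 over the 60 tested. Of these, 0 passed limma in either direction, while 13 lay higher and 4 lower when p was left unadjusted (under 0.05, background 15.6% and 15.4%). At least 1.5-fold above Mixture in 3 of 3 lines lay 20 of the 60 (background 26.4%), and 5 lay below (background 21.8%). Cytoplasmic components such as Dishevelled, Axin, Apc and Gsk3 proteins made up 11 of the 20, out of 15 tested, with a median log2 ratio of 1.19. The planar polarity gene Vangl2 gave 70.9 in Mixture, 284 in NSEB5-2C, 547 in NS195R and 478 in NS21 (log2 ratio 2.67, SE 0.52, limma adjusted p = 0.0802). The growth gene Myc and the cyclin gene Ccnd1, both often used as pathway targets, had log2 ratios of 2.56 (SE 0.49, limma adjusted p = 0.078) and 2.45 (SE 0.66, limma adjusted p = 0.123). In the other direction, Tcf7, a relative of Lef1, gave 1490.5 in Mixture and between 141 and 237 in the lines (log2 ratio -2.98, SE 0.52, limma adjusted p = 0.0667). The antagonist gene Sostdc1 gave 824 in Mixture and between 37.5 and 88.9 in the lines (limma adjusted p = 0.0846).

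Genes that the pathway itself is known to induce also differed between lines. Rnf43, a ubiquitin ligase that removes Frizzleds, gave 344 in Mixture, 2.9 in NSEB5-2C, 5.1 in NS195R and 309 in NS21, with the other lines not well above background and at least 47.2-fold below NS21. Notum, an enzyme that inactivates Wnt ligands, gave 55.2 in Mixture and 78.8 in NS21, at least 9.79-fold above the other lines, where it was dim. Cdx2, a posterior and trophectoderm factor, gave 65.0 in Mixture and 7146 in NS21, which exceeded the other lines at least 1092-fold. The R-spondin receptor gene Lgr5 was instead highest in NS195R, with 33.3 in Mixture, 9.04 in NSEB5-2C, 161 in NS195R and 2.25 in NS21, a 16.4-fold lead. Apcdd1, a membrane inhibitor, was highest in NSEB5-2C, at 2454 against 1051 in NS21, 1022 in NS195R and 592 in Mixture. These genes were named because each was among the list's farthest above both other lines in a line, so their differing order is no result. Of the 60 genes tested, 9 exceeded both other lines by at least 2-fold in NS21 (background 7.3%), as did 11 in NS195R (background 10.3%) and 2 in NSEB5-2C (background 5.6%).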

How the data were processed

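RNA of 1 Mixture sample and 3 NPC lines was labelled with Cy3 and hybridised to 1-colour Agilent arrays. The deposited spot intensities are, per the file headers, background-subtracted processed signals with quality flags from the scanner software Agilent Feature Extraction (version 9.5.3.1). The deposited value table held the same intensity at all 45018 features. The arrays shared 1 slide and 1 scan, so no batch could be tested, and columns of other samples numbered 0. For the probe positions, a genome build was not given in the sources used here.

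Printed signals are processed signals in arbitrary units and compare arrays for 1 probe, not genes. For ratios, log2 signals were centred on the percentile 75 of all non-control spots of the array. Non-uniform and outlier spots were left out, the copies of 245 repeated probes were averaged, and 19 probes lacking a value on some array were dropped. The probe with the highest mean was kept for each gene, and the 19823 genes detected on 1 array or more were tested in R 4.3.3 with limma 3.58.1 (lmFit, then eBayes; two-sided, with a threshold of 0.05 on the p-value after Benjamini-Hochberg adjustment). There were 2 residual degrees of freedom and 1.33 from the prior, and Mixture, with 1 array, was taken to vary as the lines do. Accession order numbers the NPC replicates: NS21 as 1, NS195R as 2 and NSEB5-2C as 3. For fold counts, a dim value was raised to its array's lowest detected signal, or kept if higher.

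The genes and lists were chosen with earlier results of these data known. Values on every array are given for genes past limma, at least 4-fold from both other lines in 1 line, or at least 1.5-fold from Mixture the same way in 3 of 3 lines. From the list of other pathway genes, those with the largest ratio of the same sign in 3 of 3 lines, or farthest above both other lines, were eligible to be named. Alternatives covered quantile and median scaling, normexp with offset 50, the probe kept, the filter on dim probes, an intensity trend and leaving out each line. The limma script was tested on simulated data.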

Additional observations from a re-analysis of the deposited data

Results flagged for a closer look

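For 6 genes, a line lay at least 4-fold above Mixture while another lay at least 4-fold below it, so the lines moved in opposite directions against the same array. Each line has 1 array, and the gap between the highest and lowest of them was not tested. Tested with limma as a line against the mean of the other lines, none of the 6 genes passed, with adjusted p of 0.273 for Fzd9 in NS195R, 0.709 for Wnt6 in NS21 and 0.768 for Fzd10 in NSEB5-2C. As highest minus lowest line on the log2 scale, the gap was at least 8.35 for Dkk1 (NS21 over NS195R), 8.27 for Fzd9 (NS195R over NS21) and at least 7.93 for Dkk2 (NSEB5-2C over NS195R). It was at least 7.43 for Fzd10 and at least 6.92 for Wnt3, in each case NS21 over NSEB5-2C, and 6.81 for Wnt6 (NS21 over NS195R).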

How the results depend on the processing

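No paired analysis was possible because Mixture, a pool of tissue RNA, has no counterpart among the NPC lines. The replicate number 1 that it shares with NS21 is no pairing. Genes called higher over the whole table numbered 588 with quantile normalization, 966 with normexp, 525 without the filter on dim probes, 473 with an intensity trend, 511 with dim values raised and 73 with scaling to the median of probes well above background on all 4 arrays, an alternative chosen after seeing the data, against 187. Restricted to genes bright on all 4 arrays, and without any 1 of the lines (0 to 0), limma called 0 higher and 0 lower. Leaving out a line gave 1501 to 2362 higher and 2834 to 3388 lower genes at an unadjusted p under 0.05. Of the 46 genes, those called lower numbered 3 with normexp (Wnt2, Wnt3a and Wif1), 4 with dim values raised (these and Wnt2b), 0 with median scaling, 0 among genes bright on all arrays and 0 without any 1 of the lines. Raised values of dim lines are nearly equal, so calls in that setting reflect them at least in part. At least 1.5-fold above Mixture in 3 of 3 lines lay 7 with quantile normalization, 9 with median scaling and 2 with normexp, and 5 to 6 when a line was left out. Below lay 7 with median scaling and 6 with normexp, and 15 without any 1 line. With normexp 1 lay at least 2-fold below both other lines in NS21 and 3 in NSEB5-2C, and NS195R had 4 above and 3 below. The 10-fold count was 6 with normexp and 7 to 9 without a line.

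Of 224 alternative log2 ratios to Mixture of 28 genes, 202 kept their sign. The 22 reversed values belonged to 8 genes, none called by limma, whose lines lay on both sides of Mixture, and the cause was not tested beyond the lines left out. Wnt3 (0.09) was -0.23 with the mean of probes, -0.39 with the added scaling and, leaving out a line, -2.08 (without NS21) to 1.57 (without NSEB5-2C). Wnt6 (-0.15) was 0.32 with quantile normalization, 0.60 with median scaling, 0.64 with normexp and -2.41 to 1.0 without a line (NS21 and NS195R in turn; 0.95 without NSEB5-2C). Wnt9a (-0.03) was 0.49, 0.73 and 0.27 with the same settings and -1.08 to 0.77 without the same lines (0.23 without NSEB5-2C). Fzd10 (-0.31) was 0.45 with median scaling, 0.98 with normexp, 0.32 with the mean of probes and -2.16 to 2.69 without NS21 or NSEB5-2C. Wnt7a (-1.26) was 0.29 with normexp. Dkk2 (-1.29) was 0.25 with normexp and -3.82 to 1.29 without NSEB5-2C or NS195R. Fzd9 (0.92) ran from -1.70 without NS195R to 2.43 without NS21, and Axin2 (-1.50) from -2.45 without NS195R to 0.22 without NSEB5-2C. The median log2 ratio of genes bright on all arrays was 0.71, and 0.53 with normexp, 0.74 with quantile normalization and 1.46 with median scaling. Genes not well above background have only a bound, and a single array of each line limits every comparison.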
